A study of Mus musculus with 36 samples.

Results

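Lcn2, Lrg1, Saa3, Mt1, Mt2, Hp, Serpina3n and Orm1 are 8 of the 20720 nuclear genes listed in the count tables of this mouse heart series. They are acute-phase and metallothionein genes, and they were selected on their levels 1 day against 14 days after sham surgery, so that contrast is given here as levels only and without a test. The question addressed was how the levels of these genes varied between cell classes, and between hearts that had surgery without ligation and hearts that had ischemia. All mice were male C57BL/6 mice of 8 weeks, and cells were taken from the infarcted region of the left ventricle or, after sham surgery, from the corresponding region. Sham mice, without ligation, gave 4 plates of cells at day 1 and 8 plates at day 14, of which 7 were used. Mice with ischemia-reperfusion (IR), in which the left anterior descending artery was tied for 1 hour and then released, gave 9 plates at day 1, 7 plates at day 3 and 3 plates at day 14. Mice with myocardial infarction (MI), in which the same artery stayed tied, gave 5 plates at day 3. No transgene was named for any of these groups. For sham and MI surgery the paper names anaesthesia with ketamine and xylazine, and buprenorphine against pain afterwards. Sham hearts at day 3 were not analysed here.

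The acute-phase response is the systemic reaction to tissue damage, in which interleukin-6, interleukin-1 and glucocorticoids raise the transcription of a fixed group of secreted proteins, mainly in the liver but also in other tissues. Lcn2 encodes lipocalin 2, which binds the iron carriers of bacteria. Lrg1 encodes a leucine-rich glycoprotein that acts on endothelial cells. Saa3 is a serum amyloid A gene known from macrophages, and Serpina3n encodes a secreted inhibitor of serine proteases. Hp encodes haptoglobin, the plasma protein that binds free haemoglobin, and Orm1 encodes orosomucoid, a plasma carrier protein. Mt1 and Mt2 encode metallothioneins, small cysteine-rich proteins that bind zinc and copper, and their transcription rises with zinc, through the metal-responsive factor MTF-1, and with glucocorticoids.

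In the GENCODE annotation of GRCm38, Mt2 (chr8:94172664-94173568, plus strand) and Mt1 (chr8:94179082-94180327, plus strand) lie next to each other with 5513 bases between them. Hp lies further along that chromosome (chr8:109575128-109579172, minus strand). Lcn2 (chr2:32384633-32388252, minus strand), Orm1 (chr4:63344560-63348163, plus strand), Saa3 (chr7:46711998-46715700, minus strand), Serpina3n (chr12:104406729-104414329, plus strand) and Lrg1 (chr17:56119678-56122001, minus strand) are on other chromosomes. Since Mt1 and Mt2 had the most UMIs of the members and were both called higher in 4 comparisons, the bases before their starts are shown 5′ to 3′ from RefSeq GRCm38.p6. Capitals mark matches to the core of the metal response element, searched as TGCACNC or TGCGCNC on both strands.

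Mt2: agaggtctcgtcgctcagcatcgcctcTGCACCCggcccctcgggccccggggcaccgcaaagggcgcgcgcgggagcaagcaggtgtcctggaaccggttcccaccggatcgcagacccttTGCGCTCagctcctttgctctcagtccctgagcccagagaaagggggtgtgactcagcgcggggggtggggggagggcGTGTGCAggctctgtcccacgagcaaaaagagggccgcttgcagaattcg

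Mt1: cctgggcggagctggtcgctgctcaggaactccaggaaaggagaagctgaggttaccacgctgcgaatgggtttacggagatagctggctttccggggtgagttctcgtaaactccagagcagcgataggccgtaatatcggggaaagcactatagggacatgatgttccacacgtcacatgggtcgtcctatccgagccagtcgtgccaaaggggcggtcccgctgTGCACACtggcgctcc

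The Mt2 sequence is chr8:94172368-94172617 on the plus strand and ends at the base before the start that the RefSeq promoter table uses, which lies upstream of the GENCODE gene start given above. It held 3 matches, starting 223, 128 and 50 bases before the start. The Mt1 sequence is chr8:94178839-94179081 on the plus strand and held 1 match, 23 bases before the RefSeq start. It is 243 bases long because it was ended before the GENCODE gene start, which lies upstream of the RefSeq start for Mt1. Of 32851 promoters read over 250 bases, 21.4% held at least 1 such match and 1.26% held at least 3. The count depends on the window: with 50 more bases after the start included, Mt2 held 4 matches and Mt1 held 3, and 1.97% of all promoters held at least 3. Promoters were found for 6 members, and the other members with a promoter (Lcn2, Lrg1, Saa3 and Serpina3n) held 0 matches to this motif. A C/EBP motif searched as TTGCNNAA on both strands, held by 9.56% of all promoters, matched 1 time each in Lcn2, Saa3 and Mt2, and started 216, 99 and 12 bases before the start. Neither the STAT motif TTCNNNGAA (7.02% of all promoters) nor the NF-kB motif GGGANTTCC (1.43%) was found in these windows of any member. A match is a run of letters and was not tested as a binding site.

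To follow the genes in single cells, the unique molecular identifiers (UMIs) of SORT-seq, a method in which single sorted cells are processed in separate wells of a plate, were read from 36 plates with 13824 wells. Total UMIs per plate ranged from 176614 to 5551870, and 3146 wells held at least 1000 UMIs of nuclear genes and were kept as cells. MI cells were deeper than all others, with a median of 13120 UMIs per cell against 2217 to 3230 in the other groups, and mitochondrial UMIs made up a median of 10.5% of all UMIs in them. That share was 72.1% in sham day 1, 71.9% in sham day 14 and 74.0% in IR day 14, but 34.6% in IR day 1 and 49.3% in IR day 3, so IR day 1 differs in it from each group it is compared with below, and its part in the results was not tested. MI plates carry a protocol label of their own, so surgery and library batch cannot be told apart in any comparison with MI. By markers, 1151 cells were cardiomyocyte-like, 446 endothelial-like, 299 fibroblast-like, 633 macrophage-like and 157 neutrophil-like, while 427 cells stayed unnamed. Wells of sham day 14 plate 2 repeated those of plate 7, with a correlation of well depth of 0.91 against at most 0.65 for any other pair of plates, and plate 2 was left out. Apart from that pair of plates, 19 kept cells most resembled the same-numbered well of another plate that was deeper. Of these, 10 were on sham day 14 plate 2, already left out, and 9 on IR day 1 plate 9. Leaving out these 9 as well changed no call of a member. Levels are given as CPM, the UMIs of a gene per 1000000 UMIs of all nuclear genes in the cells of 1 class on 1 plate. A mouse is not named for any plate, and plates that share a mouse would make p-values too small.

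Counts for the members differed widely in depth. Without sham day 14 plate 2, Mt1 had 27889 UMIs in kept cells and Mt2 22596, and 1898 and 1043 cells had at least 1 UMI of them. Serpina3n had 4804, Lrg1 2997, Lcn2 2887, Saa3 2877 and Hp 1770 UMIs. Orm1 was listed in 1 table, that of sham day 14 plate 2, and so had 0 UMIs on the plates used. For tests, a gene also had to pass a filter on low counts within a cell class. Lcn2, Mt1 and Mt2 passed in all 4 classes tested, Lrg1 in cardiomyocyte-, endothelial- and macrophage-like cells, Serpina3n in cardiomyocyte-, endothelial- and fibroblast-like cells, Saa3 and Hp in fibroblast- and macrophage-like cells, and Orm1 in none.

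**Figure D1:**
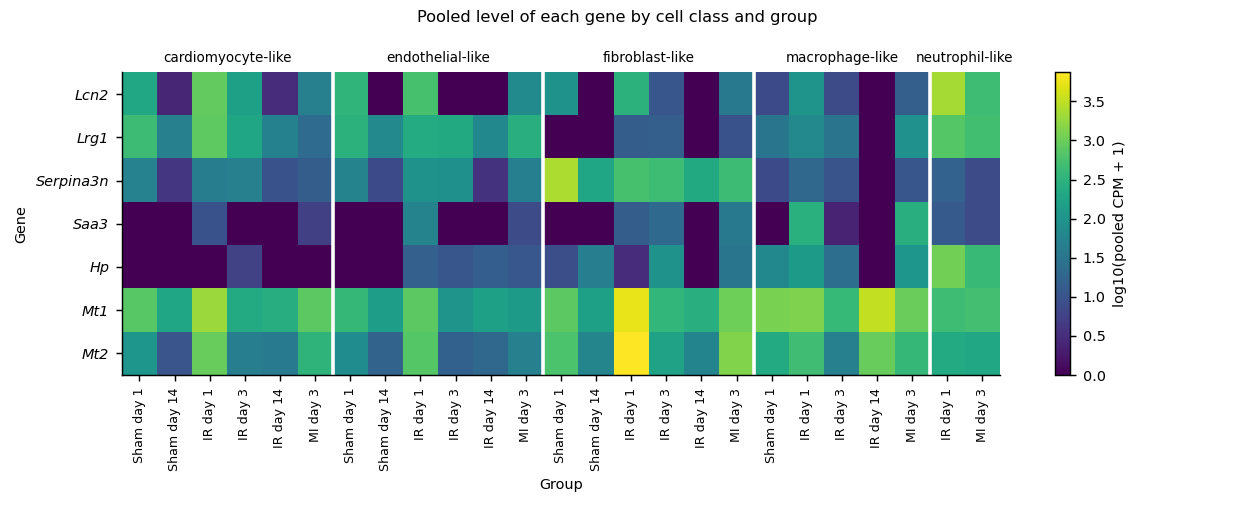
Level of each gene pooled over the cells of each class and group, as log10(pooled CPM + 1). Lcn2, Lrg1, Mt1 and Mt2 were above 100 CPM in cardiomyocyte-like cells of sham day 1, and Saa3 was found mainly in macrophage-like cells of IR day 1 and MI day 3. Orm1, at 0 UMIs, is not drawn.

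Cardiomyocyte-like cells of sham day 1 held UMIs of 5 of the members. Lcn2 was at 39.0, 285, 365 and 173 CPM on the 4 plates of sham day 1, and at 0 on 4 plates and 6.33 CPM on the other plate of sham day 14. The ranges did not overlap, and the total was 181 UMIs in 233 cells against 1 UMI in 206 cells. The pooled ratio was 134 (95% counting interval 23.7 to 5321), and its width comes from the 1 UMI. A UMI of Lcn2 was present in 23.6% of sham day 1 cells and 0.485% of sham day 14 cells, or 12.3% and 0.046% after each cell was thinned to 1000 UMIs. The highest cell held 30 of the 181 UMIs, so Lcn2 was spread over many cells. In clusters 0, 1 and 11, which held 119, 72 and 38 of the 233 cells, Lcn2 was at 184, 161 and 145 CPM. These clusters held 44, 59 and 34 of the 181 UMIs. The other UMIs lay in the 4 cells of cluster 4, so Lcn2 was higher per cell there than in the other clusters.

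Lrg1 was at 67.3, 597, 758 and 460 CPM in cardiomyocyte-like cells of sham day 1, and at 28.7, 91.4, 0, 33.5 and 38.0 CPM in those of sham day 14. Plate 1 of sham day 1 lay within the range of sham day 14, and the other plates lay above it. The pooled ratio was 9.55 (6.58 to 14.3), and 1 cell held 69 of the 387 UMIs. Clusters 0, 1 and 11 held 89, 138 and 67 of these UMIs, and the rest lay in the 4 cells of cluster 4. Serpina3n was at 10.6, 55.8, 112 and 14.4 CPM at day 1 and at 4.1, 0, 0, 16.7 and 0 CPM at day 14, and its plates overlapped as well. Its pooled ratio was 16.3 (4.25 to 139).

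The metallothioneins were higher on every plate of sham day 1 than on any plate of sham day 14 in this class. Mt1 was at 468, 943, 908 and 727 CPM at day 1, with a mean of 762 ± 217 CPM (SD, n = 4), and at 152, 311, 182, 83.7 and 184 CPM at day 14, with a mean of 183 ± 82.5 CPM (n = 5). Mt2 was at 17.7, 123, 185 and 130 CPM at day 1 and at 8.2, 12.2, 0, 0 and 12.7 CPM at day 14. The pooled ratios were 3.81 (3.14 to 4.65) for Mt1 and 11.5 (5.08 to 32.1) for Mt2. Plate 1 of sham day 1 was the lowest of its group for Lcn2, Lrg1, Mt1, Mt2 and Serpina3n, and still lay above sham day 14 for Lcn2, Mt1 and Mt2. Saa3, Hp and Orm1 had 0 UMIs in the 233 cells of sham day 1, which allows a level of up to 3.49 CPM and a share of cells with a UMI of up to 1.29%, for counting error only. This does not limit the share of cells that express them.

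Over all 4203 genes tested between the sham groups in this class, 0.642% were called higher at day 1, and nothing is read from this for the members, which this contrast chose. The defining neutrophil marker S100a8, of which neutrophil-like cells of IR day 1 held 18576 CPM, gave 1 UMI in the sham day 1 cells that held 181 UMIs of Lcn2. The 9 neutrophil markers summed to 119 to 402 CPM at day 1, where Retnlg, Il1r2, Mmp8 and Ly6g were at 0, and to 31.6 to 122 CPM at day 14, where all but Cxcr2 were at 0. Alb, the defining hepatocyte marker, was at 0 UMIs in both sham groups, and the 6 hepatocyte markers summed to at most 16.7 CPM on a plate. Cardiomyocyte markers summed to 86342 to 115322 CPM at day 1 and 118451 to 150754 CPM at day 14, with no overlap. Their part in the levels of the members was not tested.

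**Figure D2:**
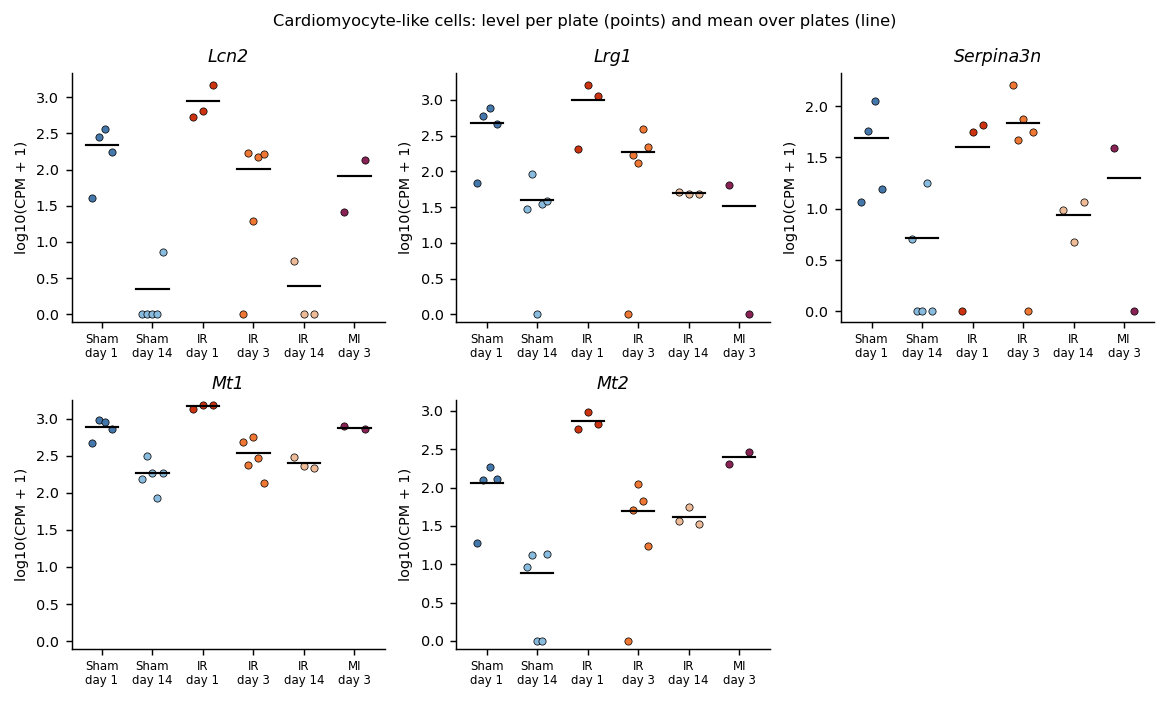
Levels in cardiomyocyte-like cells by group, as log10(CPM + 1), with 1 point per plate and a line at the mean over plates. Lcn2, Mt1 and Mt2 of sham day 1 lie above all plates of sham day 14, and Mt2 of IR day 1 lies above all plates of sham day 1.

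Temporary ligation was compared with sham at the same day to ask what ischemia added. In cardiomyocyte-like cells, Mt2 rose further at day 1. It was at 581, 978 and 680 CPM on the 3 plates of IR day 1 with at least 5 such cells, against 17.7 to 185 CPM in sham day 1, with no overlap. The log2 fold change was 2.19 ± 0.42 (SE), with an adjusted p of 0.00014. Lcn2 was at 539, 652 and 1488 CPM, also above the highest sham plate of 365 CPM, with a log2 fold change of 1.71 ± 0.44 and an adjusted p of 0.0056. The call on Lcn2 was lost under DESeq2, with the same log2 fold change of 1.71 (adjusted p = 0.25), with no filter on low counts, with 1.29 (0.108), and without IR day 1 plate 3, when the log2 fold change was 0.73 (0.397). These 2 of the 5 members tested were called higher, where 3.83% of all genes were.

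Mt1 was at 1327, 1521 and 1530 CPM in IR day 1, above the 468 to 943 CPM of sham day 1, but its log2 fold change of 0.43 ± 0.37 did not pass the test (adjusted p = 0.47). The plates of sham day 1 served to choose the members for high levels there, so they too are not an independent reference. This comparison also depends on the scaling. Over all genes tested the log2 fold change had a median of -0.53 after TMM scaling and 0.05 after relative log expression (RLE) scaling, both in edgeR. Genes called higher made up 31.7% of calls under TMM, 161 against 347 lower, and 70.7% under RLE, 309 against 128. DESeq2, run with another scaling, gave a median of -0.471 and 38.0% of calls higher, 156 against 255. Under RLE scaling Mt1 passed, with a log2 fold change of 1.02 and an adjusted p of 0.0302, and Mt2 (2.78) and Lcn2 (2.24) stayed called. Lrg1 was at 207, 1629 and 1126 CPM, with a log2 fold change of 0.54 ± 0.45 (adjusted p = 0.45). Serpina3n was at 0, 54.3 and 63.8 CPM, within the sham range, with -0.63 ± 0.92 (adjusted p = 0.69).

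The 36 cardiomyocyte-like cells of IR day 1 differed from those of sham day 1 in their clusters. Cluster 4, which Sprr1a and Nppa lead, held 24 of them and 4 of the sham day 1 cells, and Lcn2 was at 1052 CPM in the IR day 1 cells of that cluster. No level was computed for the 4 sham day 1 cells, which held all sham day 1 UMIs of Lcn2 outside clusters 0, 1 and 11. A rise of Lcn2 within cluster 4 is therefore not shown. Cardiomyocyte markers summed to 43123 to 54252 CPM on the IR day 1 plates against 86342 to 115322 CPM in sham day 1. Neutrophil markers summed to 489 to 871 CPM in these cells, with Mmp8 and Ly6g at 0, and S100a8 gave 22 UMIs or 189 CPM. Macrophage markers summed to 163 to 956 CPM, with Adgre1 at 0, against 38.5 to 280 CPM in sham day 1, where Adgre1 and Lyz2 were at 0. Fibroblast markers summed to 705 to 3530 CPM, with Lum and Dpt at 0, against 251 to 1050 CPM in sham day 1, with none at 0, and fibroblast-like cells of IR day 1 held 7420 CPM of Mt2 pooled. The part of these in the levels of Lcn2 and Mt2 was not tested. UMIs of Mt2 were present in 77.8% of the IR day 1 cells (53.8% at 1000 UMIs) and 19.3% of the sham day 1 cells (7.33%), and UMIs of Lcn2 in 36.1% (24.6%) and 23.6% (12.3%).

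By day 14 after temporary ligation no member was called against sham. Lcn2 was at 4.41, 0 and 0 CPM on the 3 plates of IR day 14, Lrg1 at 49.9, 47.9 and 47.2 CPM, and Mt1 at 304, 225 and 217 CPM. Against sham day 14, 0 of the 5 members tested were called by edgeR or by DESeq2, where 0.19% of all genes were called higher by edgeR. Mt2 was at 35.3, 55.3 and 32.2 CPM, above all 5 plates of sham day 14 (at most 12.7 CPM), with a log2 fold change of 2.01 ± 0.67 and an unadjusted p of 0.0037, which did not pass after adjustment (0.48). The plates of sham day 14 also served to choose the members for low levels there, so they are not an independent reference, and nothing further is read from this p. The other members had unadjusted p-values above 0.05.

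IR day 1 was also compared with IR day 14, on plates that the choice of the genes had not used for its sham contrast, although the IR day 1 plates are those compared with sham above. Of the 5 members tested, 4 were called higher at day 1, where 3.88% of all genes were. The log2 fold change was 8.19 ± 0.72 for Lcn2 (adjusted p = 3.2e-15), 3.92 ± 0.54 for Lrg1 (3.1e-08), 3.81 ± 0.48 for Mt2 (2.5e-09) and 2.18 ± 0.41 for Mt1 (6.3e-05). For each of these the plates of the groups did not overlap. Lcn2, with 3 UMIs in IR day 14, passed the filter on low counts through groups where it was higher. Its call is therefore not set against the share of all genes. The size for Lcn2 depended on single plates, at 10.06 without IR day 14 plate 1 and 7.21 without IR day 1 plate 3, and stayed called. Pooled over cells, Lcn2 was 411 times as high at day 1 (137 to 2024), Mt2 24.8 times, Lrg1 16.4 times and Mt1 7.47 times. Serpina3n, with 8.81, 3.69 and 10.7 CPM at day 14, was not called (2.0 ± 1.13, adjusted p = 0.25). Mt1 lost its call with no filter on low counts (1.58). Here too RLE scaling moved the share of calls that were higher, from 33.0% (163 against 331) to 72.7% (354 against 133), and the 4 members stayed called under it. Cluster 4 held 24 of the 36 cells of IR day 1 and 28 of the 342 cells of IR day 14. Marker sums moved as well, with cardiomyocyte markers at 43123 to 54252 CPM at day 1 and 117246 to 142370 CPM at day 14, neutrophil markers at 489 to 871 and 54.4 to 114 CPM (all but Cxcr2 at 0 at day 14), and macrophage markers at 163 to 956 and 29.5 to 70.5 CPM (Adgre1 and Fcgr1 at 0 at day 14). Erythrocyte markers were at 42.5 to 2933 and 14.7 to 35.3 CPM, with 4 of the 6 at 0 in each group. Mural markers were at 0 to 272 CPM at day 1 (Rgs5, Kcnj8 and Vtn at 0) and 347 to 366 CPM at day 14. Their part in these results was not tested.

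At day 3 the levels in cardiomyocyte-like cells varied between plates. In IR day 3, Lcn2 was at 0, 170, 18.5, 148 and 165 CPM, Lrg1 at 0, 171, 129, 396 and 220 CPM, and Mt1 at 483, 235, 555, 297 and 136 CPM. Mt2 was at 0, 50.1, 111, 65.9 and 16.1 CPM, and Serpina3n at 161, 45.4, 73.9, 0 and 54.9 CPM. Only 20 cardiomyocyte-like cells came from MI day 3, and 2 plates held at least 5. On these, Mt2 was at 203 and 294 CPM and Mt1 at 785 and 724 CPM, above all plates of IR day 3, while Lcn2 was at 25.3 and 136 CPM and Lrg1 at 63.3 and 0 CPM, within their range. Of the MI cells 19 were in cluster 4, and of the 289 cells of IR day 3, 184, and cardiomyocyte markers summed to 64939 to 75955 CPM in MI and 91783 to 129151 CPM in IR day 3, with no overlap. MI and IR cardiomyocyte-like cells were not tested against each other.

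Endothelial-like cells of sham day 1 also held Lcn2 and Lrg1, with levels that reached down to 0 on plate 1. Lcn2 was at 0, 47.4, 390 and 922 CPM on the plates of sham day 1 and had 0 UMIs in 74 cells of sham day 14, which makes the pooled level at least 35.8-fold higher at day 1. One cell held 105 of the 226 UMIs. Lrg1 was at 0, 23.7, 199 and 1186 CPM at day 1 and at 6.5, 200, 0 and 44.8 CPM at day 14, and 1 cell held 135 of the 199 UMIs of day 1. For both genes the day 1 plates reached down to 0 and so overlapped with day 14. That cell was in cluster 12, whose 28 cells of sham day 1 held 115 UMIs of Lcn2, while the 85 cells of cluster 5 held 78 UMIs (145 CPM).

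Serpina3n was the 1 member whose sham plates did not overlap in endothelial-like cells, with 40.5, 23.7, 52.3 and 102 CPM at day 1 and 0, 23.5, 0 and 0 CPM at day 14. Mt1 was at 113, 277, 349 and 819 CPM at day 1 and at 156, 118, 51.8 and 202 CPM at day 14. Mt2 was at 0, 71.2, 83.6 and 145 CPM at day 1 and at 26.0, 0, 0 and 22.4 CPM at day 14. The pooled ratios were 4.73 (2.98 to 7.92) for Lrg1, 2.59 (1.88 to 3.64) for Mt1, 4.76 (1.91 to 15.3) for Mt2 and 8.32 (2.14 to 71.4) for Serpina3n. Over all 3294 genes of this contrast 0.0% were called higher by edgeR, although 268 had an unadjusted p under 0.05, and DESeq2 called 1 gene. S100a8 gave 1 UMI in the endothelial-like cells of sham day 1, and the 9 neutrophil markers summed to 188 to 583 CPM, with S100a9, Csf3r, Il1r2, Mmp9 and Ly6g at 0. Cardiomyocyte markers summed to 14916 to 23190 CPM in these cells and to 13870 to 47303 CPM in sham day 14, so cardiomyocyte RNA was present in both, and its part in the members' levels was not tested.

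**Figure D3:**
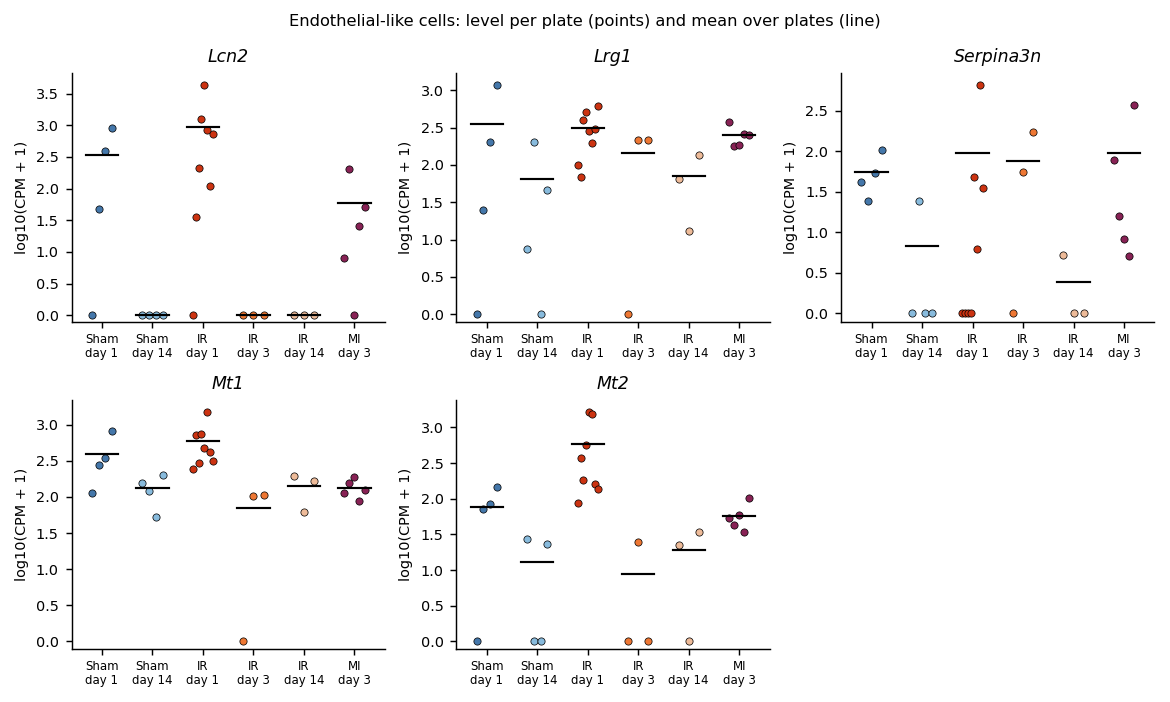
Levels of Lcn2, Lrg1, Serpina3n, Mt1 and Mt2 in endothelial-like cells by group, as log10(CPM + 1), with 1 point per plate and a line at the mean over plates. Lcn2 spans 0 to 922 CPM in sham day 1 and 0 to 4374 CPM in IR day 1, and is at 0 on all plates of sham day 14, IR day 3 and IR day 14.

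In endothelial-like cells Mt2 was called higher after temporary ligation at day 1. It ranged from 85.1 to 1664 CPM over 8 plates of IR day 1, with a median of 281 CPM, against 0 to 145 CPM in sham day 1, and the ranges overlapped. The log2 fold change was 2.75 ± 0.62 (adjusted p = 0.0021), and it was 4.22 (0.00638) after cells with markers of other classes were left out. One cell held 274 of the 400 UMIs of Mt2, and without it the pooled level was 295 CPM against 76.4 CPM in sham day 1. That made 1 of the 5 members tested, where 7.47% of all genes were called higher.

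The other members did not pass in that comparison. Lcn2 ranged from 0 to 4374 CPM in IR day 1 with a median of 469 CPM (0.96 ± 0.94, adjusted p = 0.54), and Mt1 from 241 to 1516 CPM with a median of 447 CPM (0.52 ± 0.42, adjusted p = 0.44). Lrg1 ranged from 68.7 to 623 CPM with a median of 291 CPM (-0.52 ± 0.66, adjusted p = 0.66). The sign for Lrg1 rested on sham day 1 plate 4, where 1 cell held most UMIs, since it was 1.42 without that plate (adjusted p = 0.162), 1.64 without cluster 12 and 1.95 without cells carrying markers of other classes. Serpina3n ranged from 0 to 662 CPM (0.84 ± 0.99, adjusted p = 0.63). Of the 52 Serpina3n UMIs, 49 came from plate 8. Clusters differed between the groups as well: of 77 IR day 1 cells 44 were in cluster 10 and 29 in cluster 5, and the cell with 274 UMIs of Mt2 was in the former, which held 345. In cluster 5 Mt2 was at 289 CPM in IR day 1 and 57.8 CPM in sham day 1. Cardiomyocyte markers summed to 666 to 13408 CPM in IR day 1, lower on every plate than the 14916 CPM that was the least in sham day 1, and S100a8 gave 54 UMIs, and the part of either was not tested.

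Between IR day 1 and IR day 14, 3 of the 5 members were called higher at day 1 in endothelial-like cells, where 5.22% of all genes were. Mt2 was at 21.3, 0 and 33.3 CPM at day 14, a log2 fold change of 4.77 ± 0.92 (adjusted p = 0.00042). Mt1 was at 192, 59.9 and 166 CPM at day 14 (1.96 ± 0.54, adjusted p = 0.012). Lcn2 had 0 UMIs at day 14, so its pooled level was at least 69.9-fold higher at day 1 (adjusted p = 0.012). It passed the filter on low counts only through groups where it was present, so its call is not set against the share of all genes. Serpina3n (adjusted p = 0.082) and Lrg1 (0.2) did not pass, but with no filter on low counts both did (4.63, adjusted p = 0.000117, and 1.74, adjusted p = 0.0289), as did Serpina3n with at least 10 cells per plate (5.83, adjusted p = 0.0243). None of the 3 stayed called when cells with markers of other classes were left out, which left 2 plates of IR day 14 and 8 genes called in all. Their log2 fold changes were then 4.48 for Mt2, 8.92 for Mt1 and 9.18 for Lcn2, the last of which depends on the prior count. Lcn2 was also lost without IR day 14 plate 1 and Mt1 without plate 2, when its log2 fold change was 1.56. Against sham day 14, the IR day 14 cells gave 0 of 5 members and 0.0% of all genes called higher by edgeR, with 170 genes at an unadjusted p under 0.05 and 0 called by DESeq2. Lcn2 had 0 UMIs in both groups. Cells of IR day 1 and IR day 14 were in different clusters, with 44 of 77 and 4 of 69 in cluster 10, and cardiomyocyte markers summed to 666 to 13408 CPM at IR day 1 and 24546 to 37206 CPM at IR day 14, with no overlap. Fibroblast markers summed to 128 to 1296 and 1522 to 5904 CPM, also with no overlap, and S100a8 gave 54 and 0 UMIs. The part of these in the results was not tested.

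Fibroblast-like cells carried the metallothioneins at much higher levels at day 1 of IR than in any other group. Mt2 was at 1920, 18838, 8204, 11291 and 13129 CPM on the 5 plates of IR day 1, with a mean of 10676 ± 6241 CPM, against 538, 610 and 800 CPM in sham day 1 and 78.4 CPM on the 1 plate of sham day 14 with at least 5 such cells. Mt1 was at 1755, 14757, 6193, 10711 and 6835 CPM, against 190, 1190 and 654 CPM in sham day 1 and 255 CPM in sham day 14. All 5 plates of IR day 1 lay above all sham plates for both genes, and the pooled ratio to sham day 1 was 12.5 (10 to 15.8) for Mt2 and 7.2 (5.93 to 8.83) for Mt1. This comparison was not tested. By IR day 3 Mt2 was at 122, 244, 174 and 17.7 CPM, and by IR day 14 at 0 and 74.8 CPM. All 23 cells of sham day 1 were in cluster 13 and 44 of 54 cells of IR day 1 in cluster 6, but within cluster 13 Mt2 was also at 594 CPM in sham day 1 and 3957 CPM in IR day 1. Fibroblast markers summed to 6683 to 25731 CPM in IR day 1 and 54322 to 67476 CPM in sham day 1. Cardiomyocyte markers summed to 423 to 943 and 2454 to 12131 CPM, also with no overlap. The part of these in the metallothionein levels was not tested.

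Serpina3n did not share this rise in fibroblast-like cells. It was at 443, 4075 and 1309 CPM in sham day 1, where 1 cell held 236 of the 335 UMIs, at 216 CPM in sham day 14, and at 148, 356, 748, 1097 and 993 CPM in IR day 1. The plates of sham day 1 and IR day 1 overlapped. Lcn2 was at 27.4, 400, 14.5, 227 and 2256 CPM in IR day 1, and was at 96.6 CPM pooled over sham day 1 and at 0 UMIs in sham day 14. Neutrophil markers summed to 43.6 to 1168 CPM in these cells of IR day 1, with Ly6g at 0, and to 29.7 to 72.7 CPM in sham day 1, with all but Cxcr2 at 0, and S100a8 gave 46 and S100a9 76 UMIs at IR day 1. Their part in the Lcn2 level was not tested. Saa3 was at 0 in both sham groups, and Hp had 1 UMI in sham day 1 and 4 UMIs in sham day 14.

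**Figure D4:**
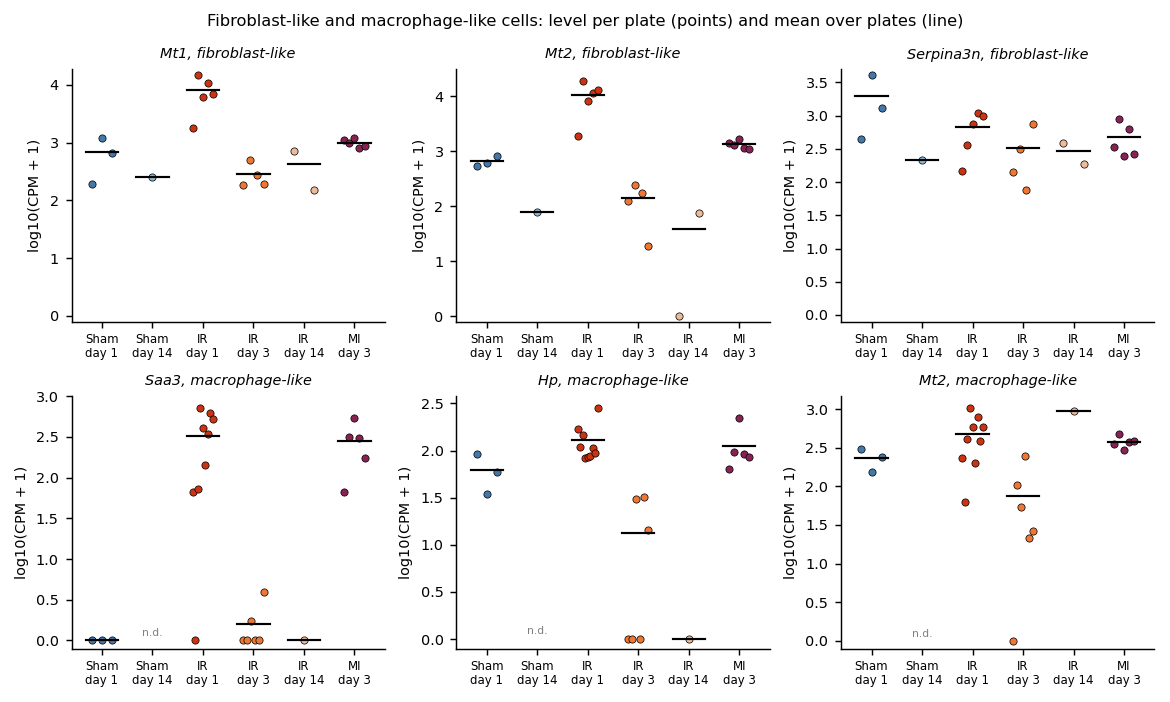
Levels of Mt1, Mt2 and Serpina3n in fibroblast-like cells and of Saa3, Hp and Mt2 in macrophage-like cells, as log10(CPM + 1), with 1 point per plate, a line at the mean over plates and n.d. where no plate held at least 5 cells. Mt1 and Mt2 of fibroblast-like cells peak in IR day 1, and Saa3 of macrophage-like cells is present in IR day 1 and MI day 3 and near 0 in IR day 3.

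Permanent and temporary ligation were compared at day 3. In fibroblast-like cells 2 of the 6 members tested were called higher in MI, where 3.33% of all genes were. Mt2 was at 1380, 1321, 1684, 1159 and 1075 CPM in MI, above all plates of IR day 3 given above, with a log2 fold change of 3.13 ± 0.55 (adjusted p = 0.00064), or 3.94 without IR day 3 plate 4. Mt1 was at 1087, 979, 1212, 803 and 864 CPM in MI and at 183, 489, 273 and 194 CPM in IR day 3, also with no overlap, and its log2 fold change was 1.65 ± 0.52 (adjusted p = 0.044). The call on Mt1 stood near the threshold and was lost under RLE scaling, in wells of at least 2000 UMIs, without cells carrying markers of other classes and without each of 8 plates in turn, although the log2 fold change stayed at 1.55, 1.52, 1.76 and 1.49 to 1.73. Under RLE scaling calls that were higher made up 26.9% (140 against 381) in place of 38.2% (198 against 321).

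The acute-phase genes were not called in fibroblast-like cells of MI. Hp was at 50.3, 17.6, 9.65, 72.3 and 16.2 CPM in MI and 40.7, 151, 24.9 and 17.7 CPM in IR day 3 (-1.32 ± 0.61, adjusted p = 0.2). Serpina3n was at 332, 893, 243, 618 and 268 CPM in MI and 142, 316, 74.6 and 751 CPM in IR day 3 (0.33 ± 0.63, adjusted p = 0.81). Lcn2 (1.71 ± 1.64, adjusted p = 0.58) and Saa3 (0.79 ± 1.3, adjusted p = 0.79) did not pass either. Lcn2 did pass with no filter on low counts (1.98, adjusted p = 0.0395), and Saa3 was at 0.02 without IR day 3 plate 4 and 3.63 without plate 7. Of the MI cells 132 of 133 were in cluster 6, where Mt2 was at 1364 CPM, against 208 CPM in the 37 cells of IR day 3 in that cluster. Fibroblast markers summed to 31361 to 38278 CPM in MI and 71315 to 96461 CPM in IR day 3, and cardiomyocyte markers to 399 to 589 and 1587 to 8821 CPM, neither with overlap, and their part in the results was not tested.

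In macrophage-like cells 5 of the 6 members tested were called higher in MI day 3 than in IR day 3, where 4.5% of all genes were. Saa3 had the largest log2 fold change of the 6. It passed the filter on low counts only through IR day 1 and MI, where it was high, so its call is not set against that share. It was at 66.6, 315, 545, 303 and 174 CPM on the 5 plates of MI and at most 2.95 CPM on the 6 plates of IR day 3, which held 3 UMIs in 194 cells. The log2 fold change was 7.38 ± 1.08 (adjusted p = 3.8e-05), and the pooled ratio was 210 (71.7 to 1018). Saa3 was thus present at day 3 in the MI cells and near 0 in the IR cells, while at IR day 1 it ranged from 0 to 719 CPM with a median of 340 CPM, and it was at 0 on all 3 plates of sham day 1. The metallothioneins of macrophage-like cells overlapped at day 1 between IR and sham, with Mt1 at 642 to 2074 CPM in IR and 588 to 2135 CPM in sham, and Mt2 at 61.1 to 1032 and 151 to 305 CPM. The pooled ratios of IR to sham were 1.07 (0.918 to 1.24) and 2.11 (1.51 to 3.03). On the 1 plate of IR day 14 with 6 such cells, Mt1 was at 3224 CPM and Mt2 at 931 CPM, Mt1 being above every plate of IR day 1. At day 1, Hp was at 83.4 to 283 CPM in IR and 33.6 to 91.5 CPM in sham, Lcn2 at 0 to 309 and 0 to 29.4 CPM, and Lrg1 at 7.15 to 145 and 15.2 to 50.4 CPM. These day 1 and day 14 values were not tested.

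Hp was at 62.9, 95.3, 220, 91.4 and 84.8 CPM in MI and at 0 to 30.8 CPM in IR day 3, with a median of 6.65 CPM (2.26 ± 0.4, adjusted p = 0.00033). Mt2 was at 354, 479, 293, 378 and 382 CPM in MI and at 0 to 244 CPM in IR day 3, with a median of 39.3 CPM (2.81 ± 0.51, adjusted p = 0.0004). Mt1 was at 976, 1027, 842, 1063 and 984 CPM in MI and at 106 to 830 CPM in IR day 3, with a median of 366 CPM (1.33 ± 0.33, adjusted p = 0.0085). For these 3 genes every MI plate lay above every IR day 3 plate. Lrg1 was at 80.5, 73.1, 158, 75.6 and 74.4 CPM in MI and overlapped with the 0 to 170 CPM of IR day 3 (1.42 ± 0.45, adjusted p = 0.043), and it lost its call under DESeq2, with at least 10 cells per plate, and without any 1 of the MI plates, with log2 fold changes of 1.44, 1.3 and 1.16 to 1.52. Lcn2 was not called (1.21 ± 0.8, adjusted p = 0.39).

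Macrophage-like cells of MI and IR were not in the same clusters. Of the IR day 3 cells 159 of 194 were in cluster 2, while the MI cells had 121 in cluster 2 and 159 in cluster 3 of 282. Within cluster 2 Saa3 was at 0.996 CPM in IR day 3 and 94.9 CPM in MI, and Mt2 at 43.3 and 335 CPM, whereas Hp was at 19.9 and 25.8 CPM and Lrg1 at 29.9 and 22.5 CPM. In cluster 3 Saa3 was at 0 CPM in 22 cells of IR day 3 and at 417 CPM in MI, Hp at 61.0 and 174 CPM, and Lrg1 at 21.8 and 134 CPM. Neutrophil markers summed to 604 to 1172 CPM in MI macrophage-like cells, with Ly6g at 0, and to 70.5 to 238 CPM in IR day 3, with Retnlg and Ly6g at 0. Macrophage markers summed to 9978 to 14057 CPM in MI and 16885 to 24740 CPM in IR day 3, with Adgre1 at 0 in both and no overlap. Pooled over the cells of MI, Saa3 was at 6.98 CPM in neutrophil-like and 276 CPM in macrophage-like cells. The part of these in the levels of the members was not tested.

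In endothelial-like cells 0 of the 5 members tested were called between MI and IR day 3 by edgeR, where 2.16% of all genes were called higher and 607 genes had an unadjusted p under 0.05. With no filter on low counts Lcn2 was called (adjusted p = 0.00766). Lcn2 was at 7.16, 207, 0, 24.5 and 49.9 CPM in MI, with 64 of the 80 UMIs in 1 cell, and had 0 UMIs in the 42 cells of IR day 3. Mt2 was at 32.7 to 99.9 CPM in MI and at 0, 23.7 and 0 CPM in IR day 3 (1.52 ± 1.36, adjusted p = 0.62). Its plates did not overlap, but the IR day 3 level rests on 42 cells, and the log2 fold change was 5.52 without IR day 3 plate 4. Mt1 (0.4 ± 0.69), Lrg1 (0.3 ± 0.9) and Serpina3n (-0.68 ± 1.31) had adjusted p-values of 0.82 to 0.91. Of the 57 MI cells 53 were in cluster 10, and cardiomyocyte markers summed to 327 to 593 CPM in MI and 14597 to 42817 CPM in IR day 3, with no overlap, and their part was not tested.

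**Figure D5:**
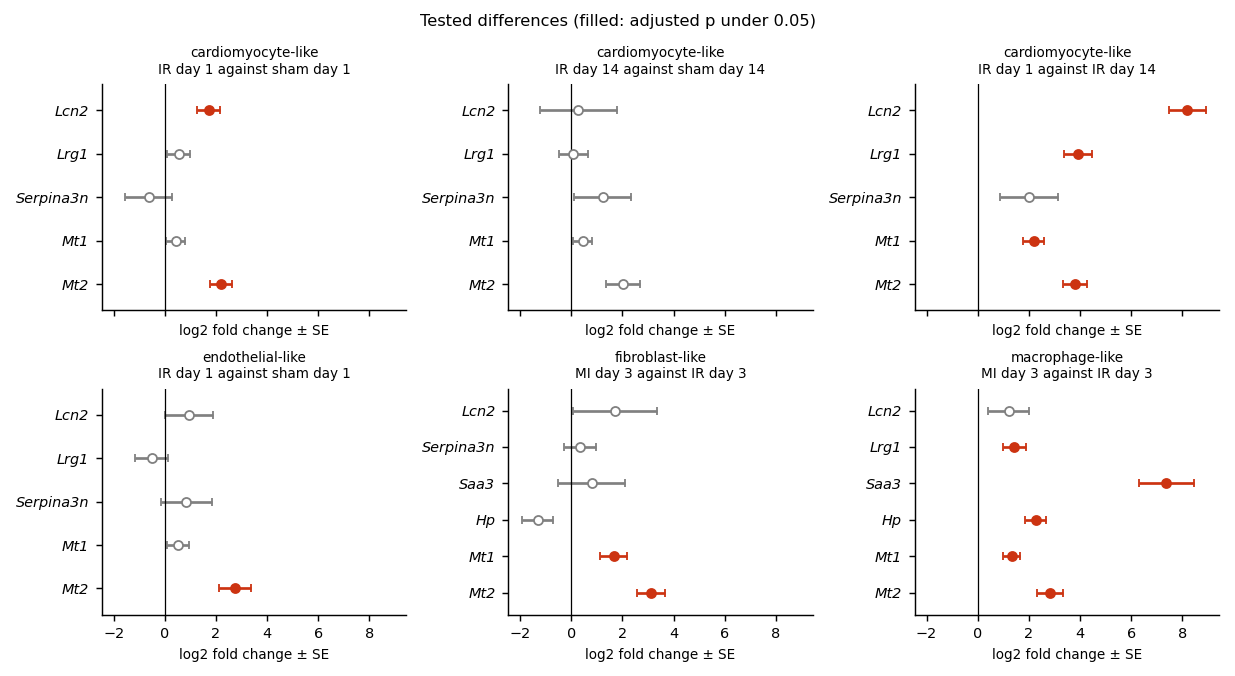
Log2 fold changes of the members after TMM scaling, with their SE, in the 6 of the comparisons tested that the panels name, and filled points where the adjusted p was under 0.05. Mt2 was called higher in IR day 1 than in sham day 1 in cardiomyocyte- and endothelial-like cells, and in MI than in IR day 3 in fibroblast- and macrophage-like cells.

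Neutrophils are a known source of lipocalin 2 and haptoglobin, and neutrophil-like cells, found almost only in IR day 1 (107 cells) and MI day 3 (49 cells), carried the highest mean levels of Lcn2 and Hp among the named classes with a plate of at least 5 cells. Lcn2 was at 2486 ± 1432 CPM over 9 plates of IR day 1, from 329 to 4506 CPM, and Hp at 1185 ± 598 CPM, from 593 to 2563 CPM. In MI (5 plates) Lcn2 was at 482 ± 344 CPM and Hp at 412 ± 154 CPM. Lrg1 was at 790 ± 615 CPM in IR day 1 and 562 ± 439 CPM in MI, Mt1 at 494 ± 349 and 504 ± 211 CPM, and Mt2 at 218 ± 140 and 191 ± 167 CPM. The groups were not tested in this class, and their days differ. Among cells left unnamed, the 100 of IR day 1 held 535 CPM of Lcn2, 1431 CPM of Mt1 and 893 CPM of Mt2, and the 30 of sham day 1 held 12 UMIs of Saa3 (115 CPM).

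Lists of related genes were followed beside the members. Other acute-phase genes numbered 31, of which 3 to 8 passed the filter on low counts in a class, and values are given for Cd14, the lipopolysaccharide receptor, and Cp, the copper carrier ceruloplasmin. In cardiomyocyte-like cells Cd14 (log2 fold change 4.46 ± 1.25, adjusted p = 0.011) and Cp (1.42 ± 0.49, adjusted p = 0.044) were called higher at IR day 1 than at IR day 14. The Cd14 level came from 1 of the 3 plates of IR day 1, at 106 CPM. In endothelial-like cells Cd14 was called higher at IR day 1 than in sham day 1 (2.6 ± 0.81, adjusted p = 0.026), and again when IR day 1 was compared with IR day 14 (adjusted p = 0.031). Genes of this list were called higher in cardiomyocyte-, endothelial- and macrophage-like cells, and their counts are not reported here. In fibroblast-like cells, 0 of the 8 tested were called in MI against IR day 3 by edgeR, with 3.33% of all genes called higher and a list median of -0.42 against 0.03.

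Of 27 genes of interleukin-6, STAT3 and NF-kB signalling, 9 were tested in cardiomyocyte-like cells and 3 were called higher at IR day 1 than in sham, where 3.83% of all genes were. These were Osmr, the receptor of oncostatin M (3.5 ± 1.07, adjusted p = 0.022), Stat3, the transcription factor downstream of it (1.48 ± 0.48, adjusted p = 0.031), and Fos, an immediate early factor (2.43 ± 0.8, adjusted p = 0.031). The list's median log2 fold change was 1.44, against -0.53 for all genes. Against IR day 14, 2 of the 9 were called higher, Junb (2.83 ± 0.78) and Cebpb (2.1 ± 0.68), both transcription factors. There 3.88% of all genes were called higher, and the list median was 1.42 against -0.49. In endothelial-like cells the interleukin-4 receptor Il4ra (1.76 ± 0.39) and Cebpb (1.98 ± 0.68) rose and the leukaemia inhibitory factor receptor Lifr (-0.95 ± 0.32) fell, of 14 tested at IR day 1 against sham, with a list median of 0.65 against 0.02 for all genes and 7.47% of all genes called higher. Of all 3294 genes there, 285 were called lower. In MI, 4 of 18 were called higher in macrophage-like cells, where 4.5% of all genes were and the list median was 0.75 against -0.03, led by Cebpb (1.5 ± 0.33, adjusted p = 0.003), the cytokine Osm (2.06 ± 0.52, adjusted p = 0.011) and the NF-kB inhibitor Nfkbia (1.66 ± 0.42, adjusted p = 0.011). In fibroblast-like cells Il4ra (1.97 ± 0.42) and the interleukin-1 receptor Il1r1 (1.36 ± 0.38) were called of 22, where 3.33% of all genes were, with a list median of 0.8 against 0.03.

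Of 20 genes of zinc handling, 0 of 7 were called by edgeR in cardiomyocyte-like cells at IR day 1 against either group (median 0.69 against sham and 0.61 against IR day 14, beside -0.53 and -0.49 for all genes), while the zinc exporter Slc30a4 was called in endothelial-like cells, 1 of 4 (1.14 ± 0.39, adjusted p = 0.044 against sham), where 7.47% of all genes were called higher and the list median was 0.52 against 0.02. The zinc importer Slc39a14 was called in fibroblast-like cells of MI, 1 of 12 (1.19 ± 0.37, adjusted p = 0.044), and 0 of 9 were called in macrophage-like cells, where 3.33% and 4.5% of all genes were called higher, with list medians of -0.09 against 0.03 and 0.06 against -0.03. Of 19 glucocorticoid-responsive genes, 5 were tested in cardiomyocyte-like cells at IR day 1 against sham, where the phosphatase Dusp1 rose (2.91 ± 0.84, adjusted p = 0.014) and the pyruvate dehydrogenase kinase Pdk4 fell (-3.16 ± 0.72, adjusted p = 0.0015), with a list median of -0.23 against -0.53 for all genes. Of all 4203 genes in that comparison, 161 were called higher and 347 lower. Against IR day 14 Pdk4 was the 1 called of the 5, also lower (-2.66 ± 0.75, adjusted p = 0.011). There 331 of all 4203 genes were called lower, and the list median was 0.21 against -0.49. In endothelial-like cells 2 of 13 rose at IR day 1 against sham, the cell cycle inhibitor Cdkn1a (2.57 ± 0.49) and Map3k6 (2.39 ± 0.73), and 2 of 13 against IR day 14, Cdkn1a (2.11 ± 0.55) and Ddit4 (2.37 ± 0.72), where 7.47% and 5.22% of all genes were called higher, with list medians of 0.44 against 0.02 and 0.32 against 0.03. In MI against IR day 3, 3 of 15 rose in fibroblast-like cells, Angptl4 (2.19 ± 0.46), Ddit4 (2.42 ± 0.57) and Fkbp5 (1.76 ± 0.48), and 3 of 15 in macrophage-like cells, led by Fkbp5 (2.41 ± 0.47, adjusted p = 0.00099), beside 3.33% and 4.5% of all genes and with list medians of 0.74 against 0.03 and 0.66 against -0.03. In endothelial-like cells 0 of 13 rose and Pdk4 fell in that comparison (-2.96 ± 0.95, adjusted p = 0.05 after rounding). There 71 of all 3294 genes were called higher and 178 lower, and the list median was 0.49 against 0.09. Fkbp5 encodes a co-chaperone of the glucocorticoid receptor. Of 13 receptors and partners of the secreted members, 1 of 7 was called in macrophage-like cells of MI, Mmp9 (5.12 ± 0.95, adjusted p = 0.00053), a matrix protease that binds lipocalin 2 and is also on the neutrophil list. There 4.5% of all genes were called higher, and the list median was 0.22 against -0.03. In fibroblast-like cells of MI 0 of 5 were called, beside 3.33% of all genes and with a list median of 0.07 against 0.03. In endothelial-like cells 0 of 3 were called in any comparison, where 0.0% to 7.47% of all genes were called higher and list medians were -0.4 to 0.45. No gene of this list was tested in cardiomyocyte-like cells. Between the sham groups, and between IR day 14 and sham day 14, 0 of the genes of these lists that were tested were called by edgeR in cardiomyocyte- or endothelial-like cells.

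As a description over the 22 plates with cardiomyocyte-like cells, the non-members whose CPM ranked most like Lcn2 among the 4203 genes tested were Slc3a2 (Spearman's rho 0.82), Flna (0.78) and H13 (0.76). Among the members, Lrg1 (0.84), Mt2 (0.81) and Mt1 (0.72) were closer to Lcn2 than Serpina3n (0.33). The closest non-members were for Lrg1 Tmbim1 (0.86), Cd63 (0.86) and Camsap1 (0.81), for Mt1 Rpl36 (0.86), Ier3ip1 (0.85) and Rpl38 (0.82), for Mt2 Ankrd10 (0.89), Ier3ip1 (0.86) and Zfp617 (0.82), and for Serpina3n Mapk3 (0.8), Wdr55 (0.66) and Klhdc3 (0.62). Mt1 and Mt2 had a rho of 0.83 with each other. The plates share groups and differ in depth, so these values carry no test. Mt1 and Mt2, and the members of the serpin, serum amyloid and orosomucoid families, are similar in sequence, and how reads shared between such genes were counted is not given in the sources used here.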

How the data were processed

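Single cells of mouse left ventricle were sorted into plates and sequenced with SORT-seq. Per the labels and the study's methods, the authors mapped reads with BWA-ALN to GRCm38 (mm10) and deposited UMI counts per gene and well, 1 table per plate. The version of BWA, the annotation and the read filters are not given in the sources used here. All 174110208 values were whole numbers. UMIs of 6 bases limit a count to 4096 per gene and well. Mitochondrial and spike-in rows were left out of library sizes.

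The 8 members and the gene lists were chosen with earlier results of these data known. Groups were taken from the sample titles, and each plate was 1 replicate. Wells of at least 1000 UMIs were kept and clustered without the members (scanpy 1.11.5, leidenalg 0.10.2, 2000 variable genes, 30 principal components, 15 neighbours, resolution 1). Every named cluster held at least 3 markers of a list at 2 or more times the level of other cells. Holding 3 was not enough by itself to name a cluster. Cluster 7, with 183 cells of which 170 came from MI day 3, held 5 fibroblast markers and stayed unnamed. Its cells are thus not part of the fibroblast-like class in any level or test. With the members kept in the clustering, 3092 of the 3146 cells had the same class. Doublets were not called and none were removed. UMIs were summed per plate and class (at least 5 cells) and tested with edgeR 4.0.16 in R 4.3.3 (filterByExpr, TMM, quasi-likelihood F test, all groups in 1 fit), with Benjamini-Hochberg adjustment over all genes tested and a threshold of 0.05, which is also the rule for a call. DESeq2 1.42.0 was an alternative. The scripts were tested on simulated data. Log2 fold changes are after scaling and carry an SE, while CPM carry an SD and are before it, so small changes can differ in sign between them. Pooled ratios carry exact 95% intervals for counting error only, and a gene at 0 UMIs was set to a floor of 3 UMIs over the group. Fibroblast- and macrophage-like cells of day 1 were given as values, without a test.

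All members were to be named in every comparison, which was kept for those that passed the filter. From each list, up to 3 called genes with the smallest adjusted p were named, with the 3 genes most like each member in cardiomyocyte-like cells. One item of these lists is not reported here. Alternatives covered scaling, filters, depth, cells per plate, clustering, copied wells, the repeated plate, Rn45s, cells with at least 1% of their UMIs from markers of other classes, and leaving out plates. Promoters came from RefSeq GRCm38.p6 and gene positions from GENCODE for GRCm38.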

Additional observations from a re-analysis of the deposited data

Results flagged for a closer look

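Over 95 sets of plates tested for a plate that stands apart from the others of its class and group, 28 were found. The threshold gives about 1 in 20 by chance only for normally distributed values, which CPM of sparse counts are not. Where all other plates were at 0, any plate with a UMI stood apart by construction. The 28 are thus a list of plates to look at and are not read as an excess. In cardiomyocyte-like cells these were Lcn2 on sham day 14 plate 8 (6.33 CPM, nearest plate 0), Serpina3n on sham day 14 plate 7 (16.7, nearest 4.1) and Hp on IR day 3 plate 6 (16.5, nearest 4.66). In endothelial-like cells, the sham plates that stood apart were plate 4 of day 1 for Lrg1 (1186 CPM, nearest 199) and plate 5 of day 14 for Serpina3n (23.5, nearest 0). In IR day 1 of that class they were plate 6 for Lcn2 (4374, nearest 1263), plate 8 for Saa3 (378, nearest 10.5) and for Serpina3n (662, nearest 47.5), and plate 7 for Mt1 (1516, nearest 747). In MI of that class they were plate 2 for Lcn2 (207, nearest 49.9), plate 4 for Hp (49.0, nearest 0) and plate 5 for Serpina3n (375, nearest 76.3).

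In fibroblast-like cells of IR day 1, plate 9 stood apart for Lcn2 (2256 CPM, nearest 400), plate 3 for Saa3 (60.3, nearest 7.84) and plate 5 for Hp (11.1, nearest 0), and in IR day 3 plate 7 for Saa3 (70.6, nearest 3.59). In macrophage-like cells of IR day 1 it was plate 9 for Hp (283 CPM, nearest 169) and plate 7 for Serpina3n (83.6, nearest 18.9). In IR day 3 of that class it was plate 4 for Lcn2 (9.98, nearest 1.48) and for Serpina3n (14.3, nearest 1.48), plate 3 for Lrg1 (170, nearest 51.7) and plate 7 for Saa3 (2.95, nearest 0.713), and in MI plate 3 for Lrg1 (158, nearest 80.5) and for Hp (220, nearest 95.3). In neutrophil-like cells it was IR day 1 plate 8 for Lrg1 (2239 CPM, nearest 1104) and plate 4 for Hp (2563, nearest 1463), and MI plate 3 for Saa3 (23.0, nearest 0) and plate 4 for Serpina3n (26.4, nearest 0).

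Wells under 1000 UMIs, which no comparison used, held Saa3 at 47.5 CPM pooled over IR day 1 and at 117 CPM pooled over MI day 3, against 0 CPM in such wells of both sham groups.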

How the results depend on the processing

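Of the 17 calls of a member, 9 were kept under every alternative run: Lcn2, Lrg1 and Mt2 between IR day 1 and IR day 14 and Mt2 between IR day 1 and sham day 1 in cardiomyocyte-like cells, Mt2 in fibroblast-like cells, and Saa3, Hp, Mt1 and Mt2 in macrophage-like cells. Over 273 recomputed values of these calls, 242 kept the call, 31 lost it and 0 changed direction. The cause of the changes below was not tested, except that fewer plates or cells were tested where they were left out. Groups of more than 5 plates were not left out in turn.

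The number of genes called moved by more than 1.5 times in these cases. For sham day 1 against sham day 14 in cardiomyocyte-like cells (30 genes called) it was 46 with at least 10 cells per plate. For IR day 14 against sham day 14 in those cells (10 genes) it was 1 under DESeq2, 19 with no filter on low counts and 6 in wells of at least 2000 UMIs. In endothelial-like cells the sham comparison (0 genes) gave 1 under DESeq2 and 13 with no filter, and IR day 14 against sham day 14 (0 genes) gave 8 with no filter. IR day 1 against sham day 1 there (531 genes) gave 171 without cells carrying markers of other classes, and IR day 1 against IR day 14 (457 genes) gave 8. An alternative chosen after seeing the data, without endothelial-like cluster 12, gave 294 for IR day 1 against IR day 14 and 94 for MI against IR day 3 (249 genes). In fibroblast-like cells (519 genes) it was 1347 with at least 10 cells per plate, 786 under DESeq2 and 1082 with no filter, and in macrophage-like cells (433 genes) 938 with no filter.

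Leaving out 1 plate at a time, the counts in cardiomyocyte-like cells were 241 to 500 for IR day 1 against sham day 1 (508 with all plates; 328, 267 and 241 without IR day 1 plates 1, 2 and 3), 2 to 11 for IR day 14 against sham day 14 (2 without IR day 14 plate 3 and 5 without sham day 14 plate 5), and 262 to 449 for IR day 1 against IR day 14 (494 with all plates, 304 and 262 without IR day 1 plates 2 and 3). In endothelial-like cells they were 0 to 1 between the sham groups (1 without sham day 14 plate 8), 345 to 417 for IR day 1 against sham day 1 (345 without sham day 1 plate 2), 0 to 2 for IR day 14 against sham day 14 (2 without IR day 14 plate 1 or 2), 208 to 337 for IR day 1 against IR day 14 (208 without IR day 14 plate 1) and 122 to 263 for MI against IR day 3 (122 without IR day 3 plate 7). In fibroblast-like cells they were 249 to 683 (249 and 338 without IR day 3 plates 4 and 7) and in macrophage-like cells 255 to 288 (275, 288, 255, 269 and 283 without MI plates 1 to 5).

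Among the members not called, the log2 fold change changed sign as follows. For IR day 14 against sham day 14 in cardiomyocyte-like cells, Lcn2 was -0.73 under DESeq2 and -0.52 with sham day 14 plate 2 in place of plate 7, and Lrg1 -0.11 in wells of at least 2000 UMIs and -0.10 with plate 2. For IR day 1 against sham day 1 in endothelial-like cells, Lcn2 was -0.24 in wells of at least 2000 UMIs, and Lrg1 1.95 without cells carrying markers of other classes and 1.64 without cluster 12. For IR day 14 against sham day 14 in endothelial-like cells, Lrg1 was -0.02 under RLE scaling, -0.01 without Rn45s, -0.74 in wells of at least 2000 UMIs and -0.16 with at least 10 cells per plate, Mt1 was -0.15 in wells of at least 2000 UMIs, -0.13 with the members kept in the clustering and -5.63 without cells carrying other markers, and Mt2 was -0.10 with the members kept. Without cluster 12, MI against IR day 3 in endothelial-like cells gave -0.12 for Lrg1 and 5.81 for Serpina3n. Leaving out plates, the sign also changed for Serpina3n at IR day 1 against sham day 1 in cardiomyocyte-like cells (-1.76 to 0.24), for Lcn2 (-1.73 to 2.16) and Lrg1 (-0.06 to 0.55) at IR day 14 against sham day 14 in those cells, for Lrg1 at IR day 1 against sham day 1 in endothelial-like cells (-0.99 to 1.42), for Lrg1 (-0.59 to 2.2), Mt1 (-0.2 to 0.5), Mt2 (-0.19 to 1.47) and Serpina3n (-2.82 to 1.84) at IR day 14 against sham day 14 there, and for Serpina3n in MI against IR day 3 in endothelial-like cells (-1.23 to 0.35) and in fibroblast-like cells (-0.04 to 1.14).

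Replicate numbers in the labels did not pair the plates: over 24 pairs of same-numbered plates the deviations from the group means correlated by -0.22 to 0.065. With the replicate number as a block all the same, the counts were 10 and 1 between the sham groups in cardiomyocyte- and endothelial-like cells, 269 for IR day 1 against sham day 1 and 239 for IR day 1 against IR day 14 in endothelial-like cells, 126 in fibroblast-like cells and 196 in macrophage-like cells. The block turned Lcn2 (-1.37) and Serpina3n (-4.70, adjusted p = 0.00548) at IR day 1 against sham day 1, Serpina3n (3.37) at IR day 14 against sham day 14 and Serpina3n (-0.02) at IR day 1 against IR day 14 in endothelial-like cells. Under the block the calls of Mt2 at IR day 1 against sham day 1 (1.72), of Lcn2 (6.34) and Mt1 (1.46) at IR day 1 against IR day 14 in endothelial-like cells, and of Mt1 in fibroblast-like cells (1.82) did not pass. Depth limits Saa3, Hp and Orm1 in cardiomyocyte-like cells, where 0 UMIs were found in sham, and every level that rests on a class with few cells.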

Other observations

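In wells under 1000 UMIs, whose cell class is not known, several members were also present. Lcn2 was at 335 CPM pooled over sham day 1, 16.2 CPM over sham day 14, 681 CPM over IR day 1, 61.8 CPM over IR day 3, 0 CPM over IR day 14 and 62.4 CPM over MI day 3. Mt2 was at 212, 5.41, 1214, 49.4, 8.66 and 466 CPM in the same order, and Mt1 at 841, 160, 2179, 173, 312 and 1201 CPM. Lrg1 was at 471, 56.8, 496, 80.3, 52.0 and 105 CPM, and Serpina3n at 84.4, 0, 100, 64.9, 8.66 and 103 CPM. Hp was at 137 CPM in IR day 1 and 34.5 CPM in MI, and at no more than 6.18 CPM in the other groups. Orm1 had 0 UMIs in these wells as well. Lcn2, Lrg1, Mt1, Mt2 and Serpina3n were thus higher in shallow wells of sham day 1 than in those of sham day 14, as in the kept cardiomyocyte-like cells. These wells share plates with the kept cells and can hold RNA released from other cells, so the values are no independent check and were not tested.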
